A study of Mus musculus with 8 samples.

Results

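The aquaporin family was examined in laser-captured endometrium of WT mice and of mice that carry the PV mutation in *Thra*, the gene for thyroid hormone receptor α1 (*Thra1PV/+*). The family was taken as the 9 genes *Aqp1*, *Aqp2*, *Aqp3*, *Aqp4*, *Aqp5*, *Aqp7*, *Aqp8*, *Aqp9* and *Aqp11*, picked by symbol out of 52325 genes in the deposited count table. The family was listed because *Aqp3* was already known from these data to be far higher in the mutant, so *Aqp3* is given here as a description without a test. The 4 *Thra1PV/+* mice are heterozygous for a dominant negative receptor that every cell with an active *Thra* promoter can make, and the 4 WT mice carry no mutation. All 8 females were sampled in metestrus, the phase of the estrous cycle that follows ovulation, and no hormone or drug treatment is named for them. Their ages are not given in the sources used here. Endometrium was cut by laser from frozen uterine sections, 1 library per mouse. Each library can mix luminal and glandular epithelium, stroma, vessels, immune cells and smooth muscle, in proportions that can differ between mice and were not measured. In such bulk samples, fewer cells of a type and less RNA per cell cannot be told apart.

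Aquaporins are membrane channels that let water follow an osmotic gradient. The aquaglyceroporins among them, *Aqp3*, *Aqp7* and *Aqp9*, also pass glycerol, and *Aqp11* sits mainly in intracellular membranes. In the rodent uterus, aquaporins are known for moving water between stroma, vessels and lumen as ovarian steroids change over the cycle, with *Aqp1* in vessels and muscle and *Aqp5* and *Aqp8* in epithelium. In skin, *Aqp3* is the main water and glycerol channel of the basal keratinocytes. *Aqp4* is best known from astrocytes of the brain, and *Aqp2* from the kidney collecting duct, where vasopressin moves it to the cell surface.

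The promoters of *Aqp3*, *Aqp1* and *Aqp2* are shown because these members were separated by genotype in every library and have a window in the RefSeq promoter table (GRCm38.p6). Each line is the 250 bases before the RefSeq start, 5′ to 3′ on the gene's strand. Capitals mark CACCC or GGGTG, the core bound by Krüppel-like factors, and AGGTCA or TGACCT, the half-site of nuclear receptors such as thyroid hormone receptor, on either strand. *Aqp3* lies at chr4:41098184-41098433 on the minus strand, *Aqp1* at chr6:55336049-55336298 on the plus strand and *Aqp2* at chr15:99578806-99579055 on the plus strand.
Aqp3: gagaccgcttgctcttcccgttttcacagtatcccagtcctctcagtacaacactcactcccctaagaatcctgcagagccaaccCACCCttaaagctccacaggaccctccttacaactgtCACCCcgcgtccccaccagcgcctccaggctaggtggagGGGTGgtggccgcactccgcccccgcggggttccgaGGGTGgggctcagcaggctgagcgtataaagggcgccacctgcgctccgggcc
Aqp1: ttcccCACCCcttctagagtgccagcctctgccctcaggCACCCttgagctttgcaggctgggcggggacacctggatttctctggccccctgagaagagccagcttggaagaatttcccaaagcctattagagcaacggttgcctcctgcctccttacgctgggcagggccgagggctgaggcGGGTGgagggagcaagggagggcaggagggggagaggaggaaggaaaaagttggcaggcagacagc
Aqp2: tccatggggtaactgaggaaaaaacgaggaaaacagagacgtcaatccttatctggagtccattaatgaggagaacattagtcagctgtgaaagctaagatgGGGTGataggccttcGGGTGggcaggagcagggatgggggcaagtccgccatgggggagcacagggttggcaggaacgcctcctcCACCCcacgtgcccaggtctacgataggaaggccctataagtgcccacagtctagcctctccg
CACCC or its reverse was found 4 times before *Aqp3*, 3 times before *Aqp1* and 3 times before *Aqp2*, with no overlap between both motifs. AGGTCA and its reverse were found 0 times in all of these windows. Across the 10 windows found for 8 members, 3 held AGGTCA (both windows of *Aqp7* and the window of *Aqp11*) and 7 held CACCC. Of all 32851 promoter windows in the table, 14.0% held AGGTCA and 52.0% held CACCC. A match is a string of letters and was not tested as a binding site.

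The libraries held between 48791602 and 59818887 estimated counts, and 18174 genes passed the filter on low counts. *Thra* itself did not separate the genotypes. It lay at 80.1 ± 34.2 CPM in *Thra1PV/+* and 78.0 ± 33.7 CPM in WT endometrium (SD, n = 4; log2 fold change 0.04, SE 0.39), and counts per gene do not tell the mutant transcript from the normal one, so they do not check the labels. The simple epithelium markers summed to between 3015 and 9316 CPM in *Thra1PV/+* and between 2783 and 8699 CPM in WT libraries, so the epithelial markers of endometrium were present in every library. *Thra1PV/+* libraries also held squamous epithelium markers at 3097 to 4769 CPM, against 3.97 to 80.8 CPM in WT libraries. WT library 1 stood apart by its smooth muscle markers, which summed to 13143 CPM, whereas the other 3 WT libraries held 573 to 1146 CPM.

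Of the 9 members, 8 passed the filter and *Aqp2* did not. A gene counted as called when the genotypes differed at least 2-fold and its p-value in edgeR's quasi-likelihood test, after Benjamini-Hochberg adjustment across the 18174 genes, was no larger than 0.1. By this rule 2 members were called, *Aqp3* and *Aqp4*, both higher in *Thra1PV/+* endometrium. Across all genes, 0.99% were called, 0.924% as higher and 0.066% as lower. In this count *Aqp3* was chosen by its own difference, and the members were listed with earlier results known, so nothing is read from it about the family. The other 6 tested members were not called. The median log2 fold change over the 8 tested members was -0.37, and it was -0.05 over all tested genes. In CPM, 2 members lay higher in every *Thra1PV/+* library than in every WT library (*Aqp3* and *Aqp4*), 2 lay lower (*Aqp1* and *Aqp2*) and 5 overlapped. Among all tested genes, 6.04% did not overlap, 3.55% as higher and 2.49% as lower. *Aqp2* is not among the tested genes and *Aqp3* was chosen by its own difference, so nothing is read from this count either. DESeq2, run as an alternative, called *Aqp2* (lower) besides these 2 members, and it called 3.64% of all genes.

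**Figure D1:**
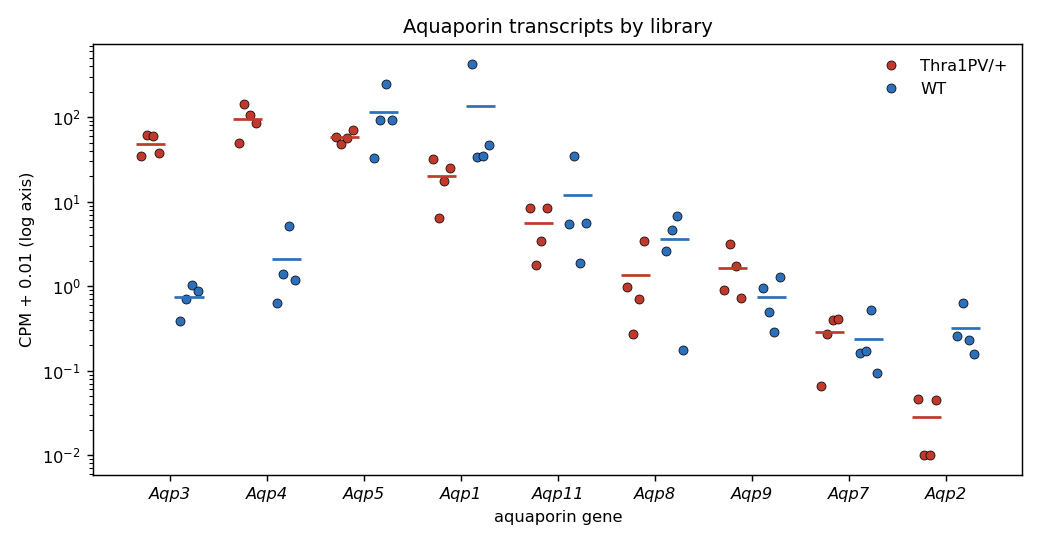
CPM of the 9 aquaporin genes in each library, on a log axis after adding 0.01 so that libraries at 0 can be drawn. Points are libraries and bars are genotype means. The *Aqp3* points lie at 34.9 to 62.0 CPM in *Thra1PV/+* and at 0.382 to 1.01 CPM in WT endometrium, and *Aqp5* points of the genotypes overlap.

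*Aqp3* (ENSMUSG00000028435.8, chr4:41092722-41098183, minus strand, GRCm38) was low in WT endometrium and far higher in the mutant. *Thra1PV/+* libraries 1 to 4 held 1902, 3057, 2943 and 2141 counts. WT libraries 1 to 4 held 20, 38, 51 and 41 counts. Every mutant library was above every WT library, and the lowest mutant library was 34.4-fold above the highest WT library in CPM. After TMM normalization *Aqp3* lay at 48.6 ± 14.4 CPM in *Thra1PV/+* and 0.735 ± 0.271 CPM in WT endometrium, a ratio of means of 66.2 (SD, n = 4). The log2 fold change was 6.05 with an SE of 0.39, and it ranged from 5.88 to 6.26 when 1 library was left out.

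*Aqp4* (ENSMUSG00000024411.9, chr18:15389496-15410982, minus strand), a channel that passes water and no glycerol, followed *Aqp3*. Its counts were 2686, 7041, 5123 and 4811 in *Thra1PV/+* libraries 1 to 4. They were 33, 77, 261 and 56 in WT libraries 1 to 4. The genotypes did not overlap, and WT library 3 was the highest WT library by a wide margin. Mean CPM was 95.3 ± 39.1 in *Thra1PV/+* and 2.10 ± 2.09 in WT endometrium, a ratio of 45.5 (SD, n = 4), with 9.50-fold between the lowest mutant and the highest WT library. *Aqp4* rose by a log2 fold change of 5.51 (SE 0.74, edgeR adjusted p = 0.0192). Without WT library 3 the value was 6.50, and *Aqp4* was called in every alternative that was run.

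*Aqp3* and *Aqp4* ranked the *Thra1PV/+* libraries in the same order, with library 2 highest and library 1 lowest, and both were highest in library 3 and lowest in library 1 of WT endometrium. *Aqp3* CPM divided by *Aqp4* CPM was 0.708, 0.434, 0.574 and 0.445 in *Thra1PV/+* libraries 1 to 4. In WT libraries 1 to 4 it was 0.606, 0.494, 0.195 and 0.732. The ratio thus overlapped between genotypes, while each gene's own level did not. The Pearson correlation of their log2 CPM was 0.98 across the 8 libraries, a value that the genotype difference by itself makes high.

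The squamous epithelium markers moved with both genes. Of this list of 12 genes, 10 were called higher, 0 lower, with a median log2 fold change of 6.77, also with *Ivl* set to its bound. *Krt15*, a basal cell keratin, rose by 7.84 and *Krt5*, the basal layer keratin, by 7.43 on the log2 scale (edgeR adjusted p = 0.0272 and 0.0268). *Ivl*, a cornified envelope precursor, held 432 to 891 counts in *Thra1PV/+* and 0 to 2 counts in WT libraries, at least 221-fold higher against the floor of 3 counts per library. *Dsc3*, a desmosomal cadherin, held 300 to 639 counts in *Thra1PV/+* and 0 to 4 counts in WT libraries. *Ivl* and *Dsc3* passed the filter on low counts through the mutant libraries. So did *Krt14*, *Krt15*, *Dsg3*, *Krt13*, *Krt6a* and *Pkp1*, whose lowest WT library held 0, 7, 8, 5, 4 and 1 counts. WT libraries alone would not have met the minimum count of 10, so the calls among these genes are descriptions. *Krt6a* and *Serpinb5* were not called. Without WT library 4, 5 of the 12 were called. In *Thra1PV/+* libraries *Aqp3* stood at a narrow 10.6 to 13.7 CPM per 1000 CPM of the summed squamous list. In WT libraries, at far lower counts, it stood at 12.5 to 96.2. *Aqp4* stood at 15.9 to 31.4 per 1000 CPM of the list in *Thra1PV/+* and at 33.0 to 159 in WT libraries. The part of squamous cell content in either difference was not tested. The simple epithelium markers, by contrast, had 10 of 12 genes tested, 0 called by edgeR or DESeq2, 0 at an unadjusted p under 0.05 and a median log2 fold change of 0.03.

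**Figure D2:**
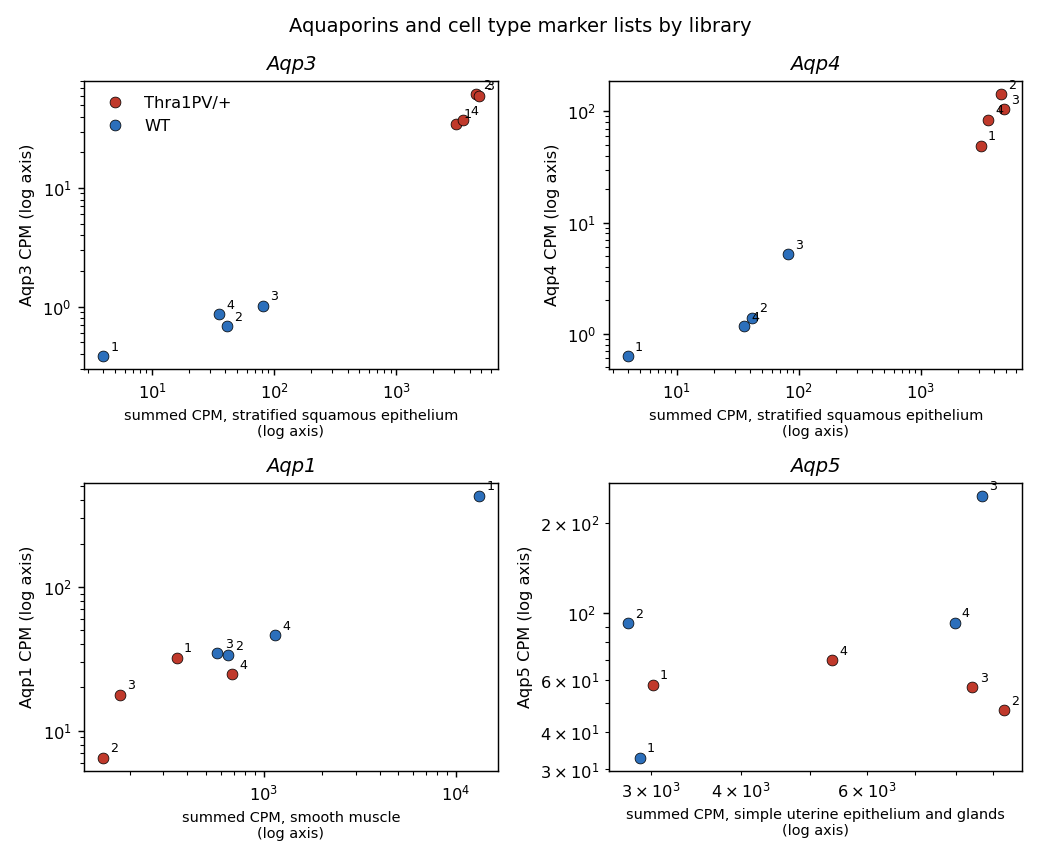
CPM of *Aqp3* and *Aqp4* against the summed CPM of squamous epithelium markers, of *Aqp1* against smooth muscle markers and of *Aqp5* against simple epithelium markers, all on log axes. Each point is a library, numbered within its genotype. *Aqp3* and *Aqp4* points form 1 group per genotype, WT library 1 lies alone at 13143 CPM of smooth muscle markers with 430.3 CPM of *Aqp1*, and *Aqp5* points of the genotypes are mixed.

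The genes whose log2 CPM ran most like *Aqp3* over the 8 libraries were *Lypd2*, *Sp6*, *Col17a1*, *Rhov* and *Lgals7* (Pearson r 0.99 or above for each, as a description over 2 genotypes). *Lypd2* had mean levels of 40.2 CPM in *Thra1PV/+* and 0.496 CPM in WT endometrium. *Col17a1*, a hemidesmosome collagen of basal epithelial cells, had 178 and 1.23 CPM. Among the 5 closest to *Aqp4* were *Ces2g*, *Lypd3*, *Nccrp1* and *Rhov*. *Rhov* was the 1 gene on both lists, with 41.0 and 1.32 CPM.

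Among the epithelial members of the uterus, *Aqp5* (ENSMUSG00000044217.16, chr15:99590782-99594829, plus strand), the apical water channel of secretory glands, was abundant in both genotypes. The mutant libraries held 3143, 2340, 2767 and 3973 counts. The WT libraries held 1720, 5135, 12436 and 4443 counts. WT libraries spread from below to above all mutant libraries, which lay close together. Mean CPM was 57.8 ± 9.07 in *Thra1PV/+* and 116 ± 91.8 in WT endometrium (SD, n = 4). The log2 fold change of -1.01 (SE 0.51) did not pass the test (edgeR adjusted p = 0.584). It was -0.31 without WT library 3, the library with the most *Aqp5*, and -1.28 (SE 0.36, edgeR adjusted p = 0.289) without WT library 1, the one with the least. Per 1000 CPM of simple epithelium markers, *Aqp5* lay at 5.10 to 19.1 CPM in *Thra1PV/+* and 11.4 to 33.3 CPM in WT libraries, so these also overlapped.

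*Aqp8* (ENSMUSG00000030762.11, chr7:123462291-123468004, plus strand), a water channel that also passes ammonia, was scarce. In *Thra1PV/+* libraries 1 to 4 it had 52, 13, 34 and 195 counts. In WT libraries 1 to 4 it had 135, 258, 344 and 8 counts. The highest mutant library was above WT library 1, and WT library 4 was the lowest of all 8. Mean CPM was 1.33 ± 1.42 and 3.56 ± 2.86 (SD, n = 4), and the log2 fold change of -1.41 (SE 1.04) did not pass the test (edgeR adjusted p = 0.728). It was -2.48 without *Thra1PV/+* library 4 and -0.87 without WT library 3, and limma voom gave -0.16.

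*Aqp11* (ENSMUSG00000042797.9, chr7:97724006-97738289, minus strand) varied more within WT endometrium than between genotypes. Counts in *Thra1PV/+* libraries 1 to 4 were 460, 88, 167 and 485. Counts in WT libraries 1 to 4 were 288, 1944, 93 and 264, so that WT library 2 set the WT mean. Mean CPM was 5.53 ± 3.45 in *Thra1PV/+* and 12.0 ± 15.5 in WT endometrium (SD, n = 4). The log2 fold change was -1.12 (SE 0.90, edgeR adjusted p = 0.756) with all libraries and 0.39 without WT library 2.

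*Aqp1* (ENSMUSG00000004655.5, chr6:55336432-55348555, plus strand), the water channel of endothelium and red blood cells, was lower in every *Thra1PV/+* library than in every WT library, by a small margin. *Thra1PV/+* libraries 1 to 4 held 32.2, 6.47, 17.7 and 24.8 CPM. WT libraries 1 to 4 held 430.3, 33.6, 34.5 and 46.2 CPM. The gap between the genotypes was that between 32.2 CPM in the highest mutant and 33.6 CPM in the lowest WT library, and WT library 1 alone made the WT mean of 136 ± 196 CPM (SD, n = 4). The mutant mean was 20.3 ± 10.96 CPM (SD, n = 4). The log2 fold change of -2.74 (SE 0.98) did not pass the test (edgeR adjusted p = 0.395), and without WT library 1 it was -0.87 (adjusted p = 0.684).

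Smooth muscle markers moved with *Aqp1*. All 8 genes of the list had negative log2 fold changes with a median of -3.96, which was -1.27 without WT library 1. By edgeR 0 were called, although all 8 had an unadjusted p under 0.05, and DESeq2 gave an adjusted p-value to 1 of them, *Des*, which it did not call. They summed to 146 to 687 CPM in *Thra1PV/+* and 573 to 13143 CPM in WT libraries, with WT library 1 highest for both the markers and *Aqp1*. Per 1000 CPM of smooth muscle markers, *Aqp1* stood at 36.1 to 99.8 CPM in *Thra1PV/+* and 32.7 to 60.3 CPM in WT libraries. These ranges overlapped, and the part of muscle content in the difference was not tested. Endothelial markers summed to 109 to 334 CPM in *Thra1PV/+* and 148 to 407 CPM in WT libraries, also with WT library 1 highest. Of these markers, 0 of 10 were called by edgeR or DESeq2 or had an unadjusted p under 0.05. Per 1000 CPM of endothelial markers, *Aqp1* stood at 59.3 to 124 and at 105 to 1057 CPM. Red blood cell markers summed to 14.7 to 29.3 CPM in *Thra1PV/+* and 17.1 to 179 CPM in WT libraries, again with WT library 1 highest, and of 5 tested, 0 were called by edgeR or DESeq2 and 2 had an unadjusted p under 0.05. *Slc4a1*, which encodes the anion exchanger of the red cell membrane, was too low to be tested. The genes most like *Aqp1* over the 8 libraries were *Mmp17*, *Aoc3*, *Kcnj8*, *Jph2* and *Oxtr* (Pearson r 0.98 or above for each). Each of these had a higher mean CPM in WT than in *Thra1PV/+* endometrium, for example *Oxtr*, the oxytocin receptor, at 1.18 and 12.8 CPM.

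*Aqp9* (ENSMUSG00000032204.13, chr9:71110659-71168682, minus strand), an aquaglyceroporin of liver and leukocytes, was low. *Thra1PV/+* libraries 1 to 4 held 48, 156, 84 and 41 counts, and WT libraries 49, 27, 14 and 61. The genotypes overlapped, with *Thra1PV/+* library 2 highest. Mean CPM was 1.62 ± 1.12 and 0.744 ± 0.448 (SD, n = 4), and the log2 fold change of 1.12 (SE 0.63) did not pass the test (edgeR adjusted p = 0.631). It was 0.57 without *Thra1PV/+* library 2. Neutrophil markers summed to 81.8 to 750.1 CPM in *Thra1PV/+* and 8.76 to 136 CPM in WT libraries, and were also highest in *Thra1PV/+* library 2. Of 7 tested, 0 were called by edgeR, 5 had an unadjusted p under 0.05 and 3 were called by DESeq2 (*S100a9*, *Csf3r* and *Il1r2*). Log2 fold changes were positive for 6 of them and negative for 1, *Ly6g* (-0.24, SE 0.78). *Aqp9* stood at 4.22 to 8.77 CPM per 1000 CPM of these markers in *Thra1PV/+* and 9.38 to 55.7 in WT libraries, and the part of neutrophil content was not tested. Among the 5 genes most like *Aqp9* was *Csf2*, which encodes a granulocyte and macrophage growth factor.

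*Aqp7* (ENSMUSG00000028427.13, chr4:41033074-41048139, minus strand), the glycerol channel of adipocytes, was very low, with 3, 13, 19 and 23 counts in *Thra1PV/+* and 8, 9, 26 and 4 counts in WT endometrium. Its log2 fold change of 0.27 (SE 0.72) did not pass the test (edgeR adjusted p = 0.945). It was 1.06 without WT library 3 and 0.0012 without WT library 4, and limma voom gave 1.08. The adipocyte markers were low as well, at 3.89 to 21.5 CPM in *Thra1PV/+* and 3.56 to 32.0 CPM in WT libraries. *Mip*, *Aqp6* and *Aqp12*, the other aquaporin genes looked up, had 5 counts or fewer in every library.

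*Aqp2* (ENSMUSG00000023013.4, chr15:99579055-99584547, plus strand) was a trace transcript that separated the genotypes in the direction opposite to *Aqp3*. *Thra1PV/+* libraries 1 to 4 held 2, 0, 0 and 2 counts. WT libraries 1 to 4 held 13, 34, 11 and 7 counts. Every mutant library was under the floor of 3 counts per library, so the level was at least 5.34-fold lower than the WT mean of 0.307 ± 0.209 CPM (SD, n = 4), or at least 3.56-fold lower without WT library 2. *Aqp2* was too low for the main fit. It was called by DESeq2 (adjusted p = 0.00695), and it was not called by edgeR when genes with at least 1 count in any library were tested (adjusted p = 0.24).

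**Figure D3:**
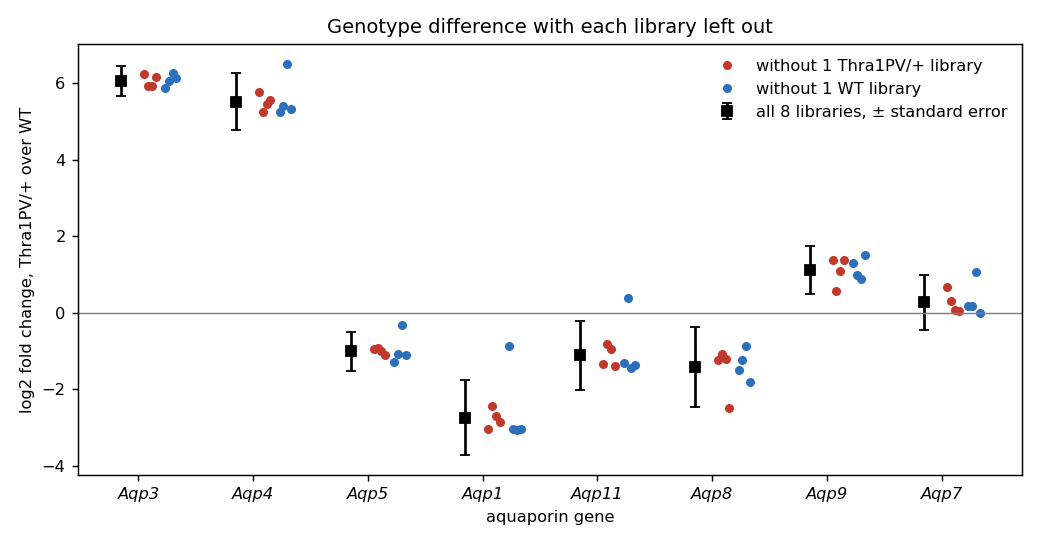
Log2 fold change of each tested aquaporin gene, *Thra1PV/+* over WT. Squares are estimates from all 8 libraries with standard errors, and points are estimates with 1 library left out. *Aqp3* and *Aqp4* stay above 5 in every point, *Aqp1* moves from -2.74 to -0.87 without WT library 1 and *Aqp11* crosses 0 without WT library 2.

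Levels of different genes were compared in the deposited TPM, which are scaled by transcript length. In WT endometrium the order by mean TPM was *Aqp5* (107 ± 78.5), *Aqp1* (64.2 ± 91.8), *Aqp11* (7.10 ± 9.24), *Aqp8* (3.53 ± 2.90), *Aqp4* (0.638 ± 0.708), *Aqp3* (0.624 ± 0.304), *Aqp2* (0.435 ± 0.250), *Aqp9* (0.403 ± 0.264) and *Aqp7* (0.178 ± 0.175; SD, n = 4 for each). The ranges of all neighbours in this order overlapped. In *Thra1PV/+* endometrium the order was *Aqp5* (56.2 ± 11.4), *Aqp3* (38.3 ± 9.91), *Aqp4* (25.6 ± 9.88), *Aqp1* (9.93 ± 5.23), *Aqp11* (2.70 ± 1.997), *Aqp8* (1.39 ± 1.61), *Aqp9* (0.929 ± 0.742), *Aqp7* (0.200 ± 0.117) and *Aqp2* (0.0220 ± 0.0255; SD, n = 4 for each). Here only *Aqp9* and *Aqp7* were neighbours without overlap. By mean TPM, *Aqp3* and *Aqp4* thus took the ranks directly behind *Aqp5*, and *Aqp1*, *Aqp11* and *Aqp8* kept their order behind them, with overlapping ranges. By counts per kilobase of annotated exons, *Aqp8* came before *Aqp11* in both genotypes and *Aqp1* before *Aqp5* in WT endometrium.

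As a share of the summed TPM of the 9 members, *Aqp3* and *Aqp4* together made up 35.2%, 62.6%, 54.2% and 36.5% in *Thra1PV/+* libraries 1 to 4. In WT libraries 1 to 4 they made up 0.173%, 0.609%, 1.08% and 1.02%. *Aqp3* alone held 28.3 ± 7.10% of the mutant total and *Aqp4* 18.8 ± 7.07% (SD, n = 4). *Aqp5* held 32.5 to 48.6% in *Thra1PV/+* and 13.9 to 88.7% in WT libraries. The leading member was *Aqp5* in 3 libraries of each genotype, *Aqp3* in *Thra1PV/+* library 2 at 34.8% and *Aqp1* in WT library 1 at 83.3%. When counts per kilobase of annotated exons replaced TPM, *Aqp3* led *Aqp5* on average in *Thra1PV/+* endometrium, at 35.6% against 30.5%, so the order of these genes differed between the scales.

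**Figure D4:**
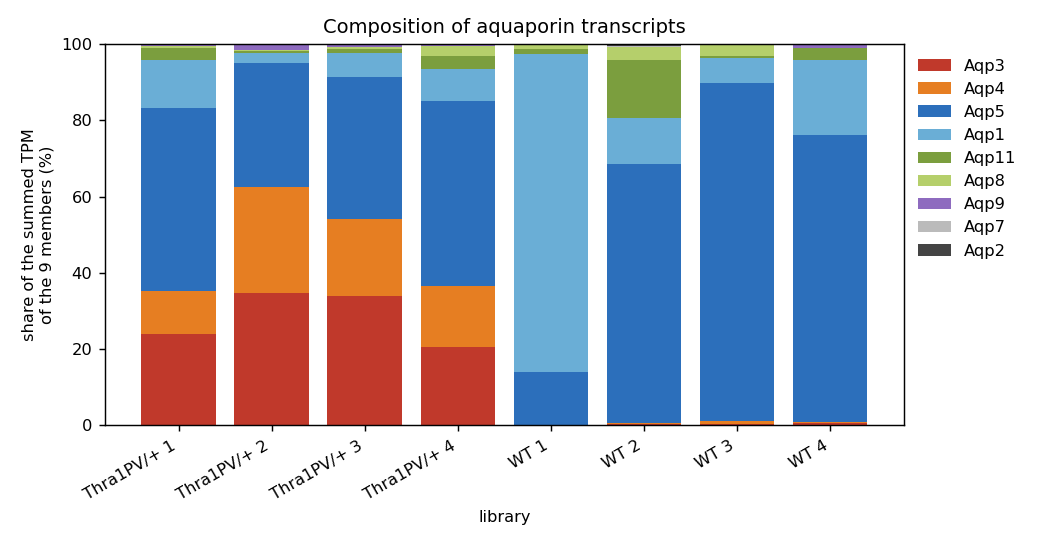
Share of each member in the summed TPM of the 9 aquaporin genes, 1 bar per library. *Aqp3* and *Aqp4* fill 35.2 to 62.6% of the *Thra1PV/+* bars and at most 1.08% of the WT bars, and *Aqp1* fills 83.3% of the bar of WT library 1.

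The summed TPM of the family overlapped between genotypes, at 135 ± 9.08 in *Thra1PV/+* and 184 ± 70.1 in WT endometrium (SD, n = 4), with ranges of 123 to 145 and 111 to 246. Without *Aqp3* and *Aqp4*, the other 7 members summed to 50.3 to 92.0 TPM in *Thra1PV/+* and 110 to 243 TPM in WT libraries, which did not overlap. These sums are descriptions, formed by leaving out the members that were higher in the mutant. *Aqp5* and *Aqp1* made up most of them, and neither gene was called. In WT library 1, *Aqp1* held 202 of 242 TPM. For single genes in CPM, 6.04% of all tested genes did not overlap in either direction.

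*Aqp3* and *Aqp7* lie 44582 bp apart on chromosome 4. The 3 nearest tested genes on each side of the pair were *Bag1*, *Chmp5* and *Nfx1* and *Nol6*, *Ube2r2* and *Ubap2*. Their log2 fold changes lay between -0.07 and 0.18, and none was called (edgeR adjusted p between 0.693 and 0.999). *Nol6*, a ribosome assembly factor 16244 bp from *Aqp3*, had 39.9 and 40.0 CPM. *Aqp2* and *Aqp5* lie 6234 bp apart on chromosome 15, with *Aqp6* a further 6570 bp away. Of the 6 nearest tested genes there, *Nckap5l*, *Bcdin3d*, *Faim2*, *Racgap1*, *Smarcd1* and *Gpd1*, none was called either. *Faim2*, an inhibitor of Fas-mediated cell death, had a log2 fold change of -2.89 (SE 0.94, edgeR adjusted p = 0.352), and *Racgap1*, a cytokinesis gene, one of 1.24 (SE 0.66, edgeR adjusted p = 0.610).

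Genes that act with aquaporins were read from 5 lists, and 0 of them were called by edgeR. At an unadjusted p under 0.05, edgeR had 6 of these genes, namely *Lrrc8b*, *Akap11*, *Oxtr*, *Atp12a*, *Atp1b1* and *Scnn1g*. The share of all tested genes under that limit is not given here, so nothing is read from this count. DESeq2 called 1, *Scnn1g*, and gave no adjusted p-value to *Oxtr* and *Atp12a*. In glycerol handling, 13 of 14 genes were tested with a median log2 fold change of -0.32. *Gpd1*, which makes glycerol 3-phosphate, had -0.92 (SE 0.72), *Lpl*, which releases fatty acids from lipoproteins, -0.91 (SE 0.51), *Gk*, glycerol kinase, 0.84 (SE 0.57) and *Lipe*, hormone-sensitive lipase, -0.83 (SE 0.47). In the osmotic response, 12 of 13 genes were tested with a median of 0.00. *Lrrc8b*, a subunit of the volume-regulated anion channel, had the value farthest from 0, at 0.76 (SE 0.30), and *Nfat5*, the osmotic stress transcription factor, had 0.06 (SE 0.18). The osmolyte transporters *Slc5a3* (-0.05, SE 0.33) and *Slc6a6* (-0.19, SE 0.22) also lay near 0.

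In vasopressin and cAMP signalling, 11 of 13 genes were tested with a median of -0.12. The vasopressin receptor genes *Avpr1a* and *Avpr2* were too low to be tested. *Oxtr* had -3.43 (SE 1.20, edgeR adjusted p = 0.388), and its level rested on WT library 1, with 42.2 CPM there and 2.35 to 4.12 CPM in the remaining WT libraries. *Pde4d*, a cAMP phosphodiesterase, had 0.74 (SE 0.36) and *Akap11*, a kinase anchor, -0.43 (SE 0.19).

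In uterine ion transport, 13 of 15 genes were tested with a median of -0.11. *Scnn1g*, the γ subunit of the epithelial sodium channel, lay at 4.81, 2.90, 1.47 and 0.385 CPM in *Thra1PV/+* libraries and at 0.114, 0.0361, 0.199 and 0.209 CPM in WT libraries. These did not overlap, as was so for 3.55% of all tested genes in this direction. The log2 fold change of 4.08 (SE 0.86) missed the threshold (edgeR adjusted p = 0.114). *Scnn1g* was very low in WT libraries and passed the filter on low counts through the *Thra1PV/+* libraries, so its separation is a description. It was called by DESeq2, and by edgeR without *Thra1PV/+* library 4. The α and β subunits *Scnn1a* (-0.11, SE 0.55) and *Scnn1b* (0.64, SE 0.34) were not called. *Atp12a*, a proton and potassium pump, had -4.82 (SE 1.60, edgeR adjusted p = 0.361), with 91.5 CPM in WT library 1 and at most 3.01 CPM in any other library. *Slc26a4*, an anion exchanger, had 1.58 (SE 1.32), and *Atp1b1*, a sodium pump subunit, had -0.90 (SE 0.33, edgeR adjusted p = 0.409). *Cftr*, the chloride channel that drives uterine fluid secretion, had -0.40 (SE 0.49).

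Of the estrogen and progesterone response genes, all 14 were tested with a median of -0.29. Their CPM summed to 7200 to 26498 in *Thra1PV/+* and 3812 to 46309 in WT libraries. Within WT endometrium the sum was lowest in library 2 and highest in library 3, the library with the most *Aqp5*. WT libraries 2 and 4 held similar *Aqp5*, at 92.7 and 93.0 CPM, but sums of 3812 and 26913 CPM. The least *Aqp5* was in WT library 1, at 32.8 CPM with a sum of 8446 CPM. In WT library 3, *C3*, *Ltf* and *Lcn2* held 18372, 16021 and 10095 CPM. *Esr1*, the estrogen receptor (-0.21, SE 0.27), and *Pgr*, the progesterone receptor (-0.25, SE 0.59), overlapped between genotypes. *Fst*, an activin antagonist, had -2.04 (SE 0.91), *Hoxa10*, a uterine patterning factor, -2.01 (SE 1.12), *Igf1*, a stromal growth factor, -1.20 (SE 0.92) and *Ihh*, an epithelial progesterone target, -1.18 (SE 1.15), none of them called (edgeR adjusted p between 0.528 and 0.804). The endometrial stroma markers summed to 465 to 5515 CPM in *Thra1PV/+* and 1765 to 4957 CPM in WT libraries, and macrophage markers to 193 to 672 and 233 to 442 CPM, with 0 called by edgeR in either list. At an unadjusted p under 0.05 edgeR had 1 of these genes, the stromal proteoglycan gene *Dcn*, which DESeq2 also called.

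**Figure D5:**
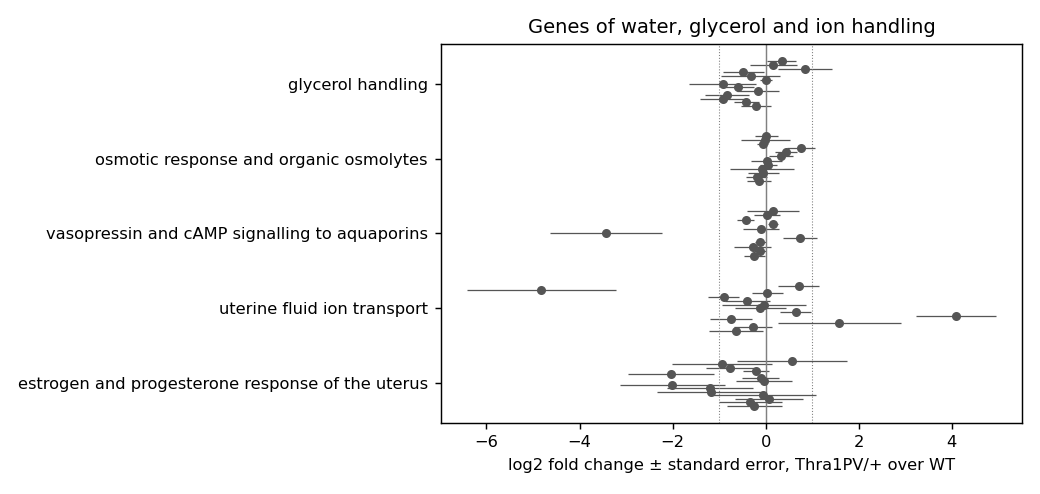
Log2 fold change of the tested genes of the 5 lists, *Thra1PV/+* over WT, with standard errors as bars and dotted lines at a fold change of 2. 0 genes were called. *Scnn1g* is the point at 4.08, *Oxtr* that at -3.43 and *Atp12a* that at -4.82.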

How the data were processed

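The data were RNA-seq libraries of endometrium cut by laser from 4 *Thra1PV/+* and 4 WT mice. The authors trimmed reads with Trimmomatic, ran salmon for mouse genome mm10 and deposited estimated counts per gene without normalization. The salmon version and annotation release are not given in the sources used here. The authors also deposited TPM values per gene. Sorted TPM values differed between libraries by at most 0.291 TPM at any rank, the form quantile normalization gives. 1 further TPM column, which matched no sample, was not used.

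Estimated counts were rounded and tested in R 4.3.3 with edgeR 4.0.16 (filterByExpr with a minimum count of 10 and a total of 15, TMM, quasi-likelihood test with genotype as the only term, Benjamini-Hochberg adjustment over 18174 genes). Calls used the study's thresholds, at least a 2-fold difference and an adjusted p-value no larger than 0.1. Counts of genes at an unadjusted p under 0.05 are given without the share of all tested genes, so they are descriptions. Log2 fold changes are *Thra1PV/+* over WT, with SE derived from the F statistic. CPM values are after TMM, and log2 CPM for correlations used a prior count of 2. Library totals were 48791602 to 59818887 counts. The floor was fixed at 3 counts per library, which covers counting error only, and was turned into CPM with library sizes after TMM. P-values measure the spread between mice. Positions are from GENCODE M21 (GRCm38, the mm10 build), in which 49550 of the 52325 genes have the same identifier version.

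The members and gene lists were chosen with earlier results of these data known. Named genes were all members, *Thra*, up to 4 genes per list (called first, then by size of log2 fold change), the 5 genes most correlated with a member and the neighbours of the paired loci. Some genes that this rule takes are not reported here. Other list genes were named after their values were seen. Ratios to marker lists were added after seeing the data. Alternatives were DESeq2 1.42.0, other normalizations and filters, the replicate number as a block, limma voom and limma (3.58.1) on log2 TPM, and each library left out. Genes to which DESeq2 gave no adjusted p-value were left as missing.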

Additional observations from a re-analysis of the deposited data

Results flagged for a closer look

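*Aqp1* in WT library 1 stood far from the other WT libraries, at a log2 CPM of 8.75 against 5.07 to 5.53 in the other 3. The gap made up 0.875 of the whole range, which is above Dixon's 95% critical value for 4 libraries. 16 groups of 4 libraries, 8 members in each genotype, were looked at, of which chance would flag 0.8 on average, and this was the 1 past the value. The same library held 13143 CPM of smooth muscle markers and 179 CPM of red blood cell markers. It also held 407 CPM of endothelial markers. Each of these sums was the highest of all 8 libraries.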

How the results depend on the processing

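*Aqp4* was called under all 19 alternatives, with log2 fold changes of 4.02 to 6.50. As a description, the value of *Aqp3* ranged from 4.58 to 6.26 over them. *Aqp1*, *Aqp5*, *Aqp7*, *Aqp8*, *Aqp9* and *Aqp11* were called under none of theirs (DESeq2 gave *Aqp1* no adjusted p-value), and their direction held except for *Aqp11*, which turned to 0.39 without WT library 2 and ranged from -1.45 to 0.39 when 1 library was left out. DESeq2 called 793 genes, 1 gene of the pathway lists (*Scnn1g*) and 16 of the cell type lists, against 180, 0 and 10 by edgeR. Genes called numbered 81 with at least 10 counts in every library, 119 with limma on log2(TPM + 1) over all genes above 0, and 311 with limma voom. Leaving out 1 library gave 81 to 167 genes called (116, 81 and 114 without *Thra1PV/+* libraries 2 and 3 and WT library 4), 0 to 1 pathway genes and 5 to 10 cell type genes. With the replicate number as a block, 82 genes were called. Same-numbered libraries of the genotypes did not deviate together in all pairs (correlations 0.269, -0.436, 0.34 and -0.159), and 1 of the 4 numbers correlated best with itself. So few pairs cannot exclude that same-numbered libraries belong together, and nothing is concluded from these values. With counts per kilobase of annotated exons in place of TPM, the mutant share was 35.6% for *Aqp3* and 30.5% for *Aqp5*, and 5 members in *Thra1PV/+* and 3 in WT endometrium kept their rank. The causes were not tested. Depth limits *Aqp2* and *Aqp7* most, which held at most 34 and 26 counts in any library.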
